A study of Homo sapiens with 6 samples.

Results

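The HOX clusters with EVX1 and EVX2 comprise 40 homeobox genes, and the β-catenin peaks described here are the rows of 3 deposited peak lists that the authors assigned to one of these genes, at any distance. The rule found 22 peaks among the 3126 peaks of the series, 0 of 260 in the RPMI list, 13 of 1053 in the CHIR list and 9 of 1813 in the CHIR+SB list. They belonged to 9 of the 40 genes. The peaks come from chromatin immunoprecipitation and sequencing (ChIP-seq) in SA121, a human embryonic stem cell line, collected 6 h after transfer to 1 of 3 media. These were RPMI-1640 alone (the mock treatment), RPMI-1640 with CHIR99021 (CHIR), and RPMI-1640 with CHIR99021 and SB431542 (CHIR+SB). CHIR99021 inhibits the kinase GSK3 and so stabilises β-catenin, and SB431542 inhibits the receptors for activin, Nodal and TGFβ. Each condition had 1 library with a goat antibody to β-catenin and 1 with control goat IgG, and each library was made from pooled parallel immunoprecipitations of this single cell line. There were no replicates, so no difference between conditions was tested. The lists hold no expression values, so the identity of the cells could not be checked from marker genes.

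HOX genes encode transcription factors that give the parts of the body axis their identity. They lie in 4 clusters, HOXA to HOXD, and within a cluster the order of the genes matches the order in which they are switched on and the position along the head to tail axis at which they act. Genes at the same place in different clusters form numbered paralogue groups, with low numbers acting near the head and high numbers near the tail. EVX1 and EVX2 are homeobox genes beside the high-numbered ends of the HOXA and HOXD clusters, and EVX1 is a gene of the posterior primitive streak. Wnt signals are among those that switch on HOX genes in the streak, and β-catenin reaches DNA through TCF/LEF proteins.

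The upstream bases of EVX1 are shown because the start site given for it in the peak lists lay under a peak. That site was not matched to the RefSeq start used here. Those of HOXB1 are shown because it was the single gene with a peak whose matched upstream bases held a TCF/LEF motif. Each run gives the 250 bases before the RefSeq start site on the gene's own strand, 5′ to 3′, in build GRCh38.p14, at chr7:27242552-27242801 (plus strand) for EVX1 and chr17:48531012-48531261 (minus strand) for HOXB1. Capitals mark the motif found.
EVX1: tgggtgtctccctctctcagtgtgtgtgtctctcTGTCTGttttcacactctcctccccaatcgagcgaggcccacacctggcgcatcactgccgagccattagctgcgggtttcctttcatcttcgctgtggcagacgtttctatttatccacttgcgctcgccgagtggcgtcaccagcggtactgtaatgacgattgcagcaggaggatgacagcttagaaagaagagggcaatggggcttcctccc
HOXB1: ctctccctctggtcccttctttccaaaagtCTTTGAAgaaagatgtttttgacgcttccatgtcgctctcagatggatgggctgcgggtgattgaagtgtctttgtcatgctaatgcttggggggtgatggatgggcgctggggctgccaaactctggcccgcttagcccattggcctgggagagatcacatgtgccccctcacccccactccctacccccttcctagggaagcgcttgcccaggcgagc
In EVX1 the capitals are the SMAD motif CAGACA, found on the other strand as TGTCTG 216 bases before the start. In HOXB1 they are the TCF/LEF motif CTTTGAA, 220 bases before the start. RefSeq windows were matched for 22 of the 40 genes and for 7 of the 9 with a peak (HOXB3 and HOXB13 had none). The motifs CTTTGAA and CTTTGAT, which differ in the last letter, are TCF/LEF motifs. CTTTGAA was in the window of 1 of the 7 genes with a peak, against 3.80% of 35116 windows of the same length, and CTTTGAT in 0 of 7, against 2.26%. CAGACA was in 1 of 7, against 13.6%, and the octamer motif ATGCAAAT, a POU factor motif, in 1 of 7 (HOXA10), against 1.63%. All were searched on both strands. Among all 22 matched genes, CTTTGAA was in 2, CTTTGAT in 0, ATGCAAAT in 2 and CAGACA in 6. Those without a peak were HOXD12 (CTTTGAA), HOXA3 (ATGCAAAT), and EVX2, HOXA2, HOXA3, HOXD12 and HOXD4 (CAGACA). The 22 genes had 29 windows, so these counts of genes and the shares of windows are unlike units. A match is a description of the letters. The peak coordinates are in another build and were not placed on these windows. Whether a window shares bases with a peak was therefore not determined, and the peaks themselves were not searched. By the start site in the peak lists, the HOXB1 peak ran from 3675 to 3852 bp after the start, beyond the gene's end. The HOXB1 motif lies before the RefSeq start, so it should not be linked to that peak.

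**Figure D1:**
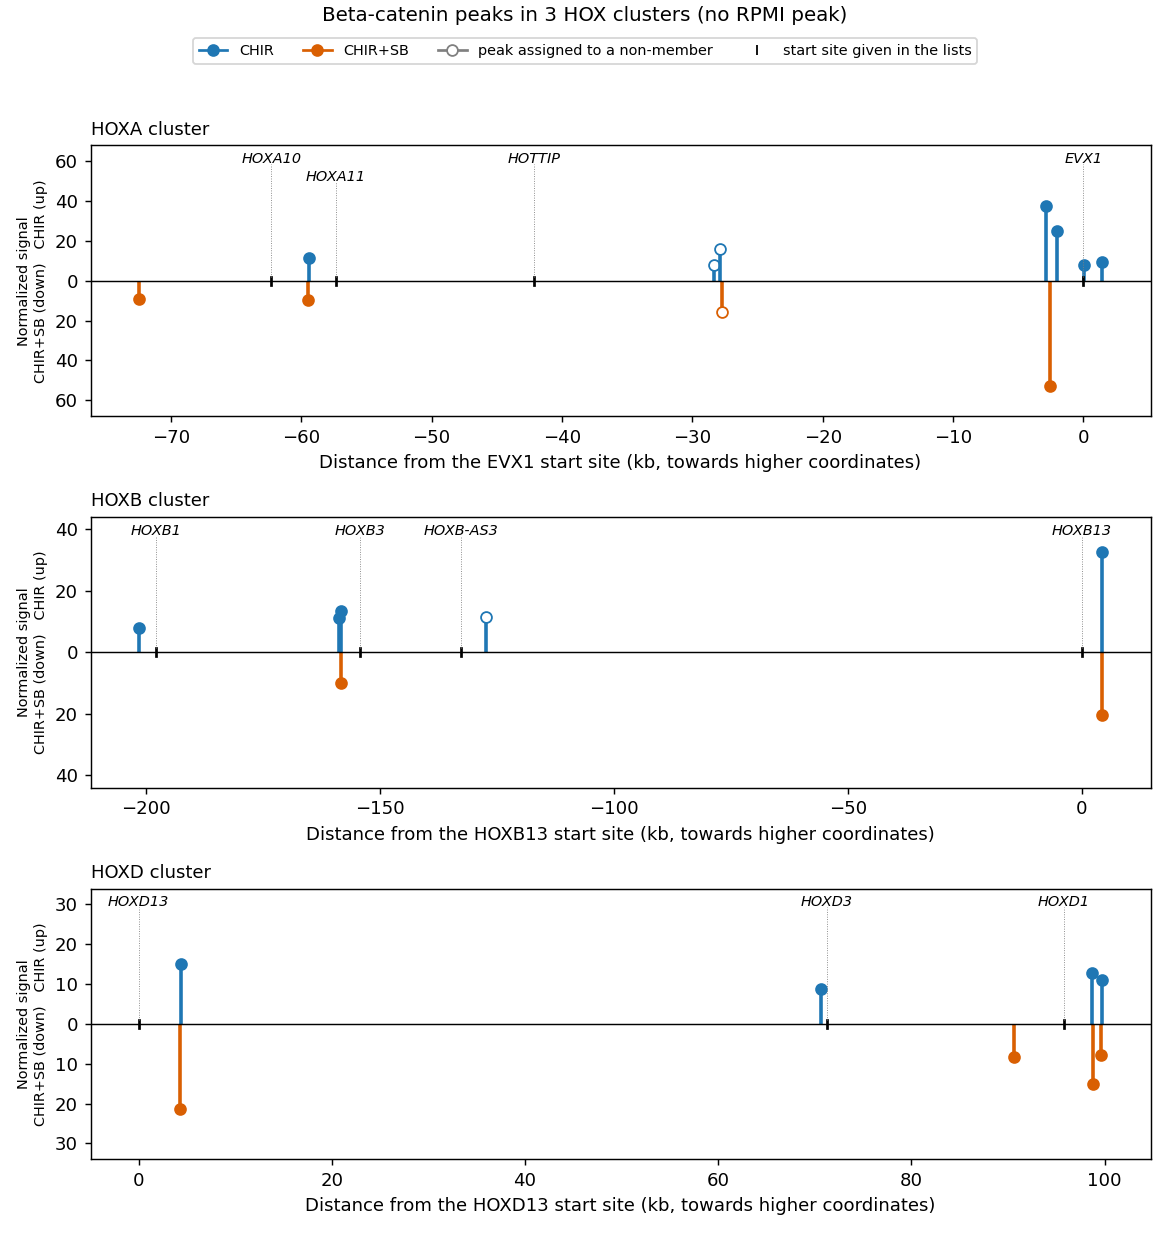
Peaks in the HOXA (top), HOXB (middle) and HOXD (bottom) regions by distance in kb from the start site of EVX1, HOXB13 or HOXD13, with the normalized signal of CHIR peaks drawn upwards and of CHIR+SB peaks downwards; open circles are peaks between these that were assigned to HOTTIP or HOXB-AS3. The highest member peaks lay at EVX1 and HOXB13, and no RPMI peak fell in these spans.

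The lists held 6272 reads in RPMI peaks, 39408 in CHIR peaks and 39022 in CHIR+SB peaks. By the authors' scaling factors, the β-catenin library was 1.67 times as deep in CHIR and 1.14 times as deep in CHIR+SB as in RPMI. The IgG library was 0.976 times as deep in CHIR and 1.75 times as deep in CHIR+SB as in RPMI. IgG read counts given below therefore do not compare CHIR with CHIR+SB directly. The smallest peak listed held 15 reads for RPMI, 20 for CHIR and 12 for CHIR+SB, which after the authors' scaling are normalized signals of 9.61, 7.68 and 6.75.

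β-catenin peaks were assigned to HOX and EVX genes with CHIR and with CHIR+SB, and to none of them in RPMI. With CHIR, 8 of the 40 genes had a peak (EVX1, HOXA11, HOXB1, HOXB3, HOXB13, HOXD1, HOXD3 and HOXD13), and 3.8% of all protein-coding genes did. With CHIR+SB, 7 of the 40 had one (EVX1, HOXA10, HOXA11, HOXB3, HOXB13, HOXD1 and HOXD13), against 6.25%, and in RPMI 0 of 40, against 1.13%. Beside so low a share, 0 of 40 does not set these genes apart in RPMI. These genes are neighbours, so their peaks are not independent of each other. In bulk chromatin, more cells with a bound site and more β-catenin per cell cannot be told apart. By cluster, HOXA with EVX1 had peaks at 3 of 11 genes, HOXB at 3 of 10, HOXD with EVX2 at 3 of 10 and HOXC at 0 of 9. These counts take a peak in any list, and no share of all genes was computed on that basis. EVX1 took 208 of the 532 reads in the CHIR peaks of these genes (39.1%) and 94 of 275 in CHIR+SB (34.2%).

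The peaks lay near the genes but mostly not on the start sites. In CHIR the median distance from peak centre to the transcription start site (TSS) was 2.96 kb, from 0.057 to 4.47 kb, where the median of the whole list was 15.6 kb. In CHIR+SB it was 4.13 kb, from 2.12 to 10.2 kb, against 45.9 kb. HOX genes stand close together, so a peak inside a cluster is never far from one. A centre within 1 kb of the TSS was found for 2 of the 13 CHIR peaks, at EVX1 and HOXD3, against 26.6% of all CHIR peaks. None of the 9 CHIR+SB peaks had one, against 14.5%. Of the CHIR peaks 4 were upstream, 5 within and 4 downstream of the gene, against 42.9%, 33.1% and 23.9% of that whole list. Of the CHIR+SB peaks the counts were 3, 2 and 4, against 38.5%, 33.6% and 27.9%. With so few peaks, these positions do not set the genes apart from the lists.

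EVX1 had the highest peak of these genes in each of the CHIR and CHIR+SB lists, and 4 of the 13 CHIR peaks. In CHIR, 98 reads lay at chr7:27278947-27279671 (peak coordinates are in hg19), centred 2.85 kb upstream of the TSS, with 11 IgG reads, and this peak had rank 15 of 1053. A second CHIR peak, 117 bp further towards the gene (chr7:27279788-27280427), had 65 reads and 9 IgG reads and rank 83. CHIR+SB had 1 peak over the same stretch, chr7:27278976-27280226, with 94 reads and 27 IgG reads, and rank 5 of 1813. One wide CHIR+SB peak thus stood where CHIR had a pair, and ranks do not compare the conditions: the summed CHIR signal was 62.6, against 52.9 in CHIR+SB. Per kb of called peak the signals were 45.9 and 42.3. The normalized IgG signal over this stretch was 14.1 in CHIR and 10.6 in CHIR+SB. Each value rests on 1 library.

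Closer to the gene, EVX1 had 2 weak peaks in the CHIR list alone. One ran from 6 bp before to 120 bp after the TSS (chr7:27282157-27282283) with 20 reads, the lowest count in that list. The other lay 1.45 kb into the gene (chr7:27283496-27283733) with 25 reads. Both had 3 IgG reads. The plot of the EVX1 locus shows the upstream pair in CHIR merged into 1 peak in CHIR+SB, and the TSS and gene body peaks in CHIR only.

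**Figure D2:**
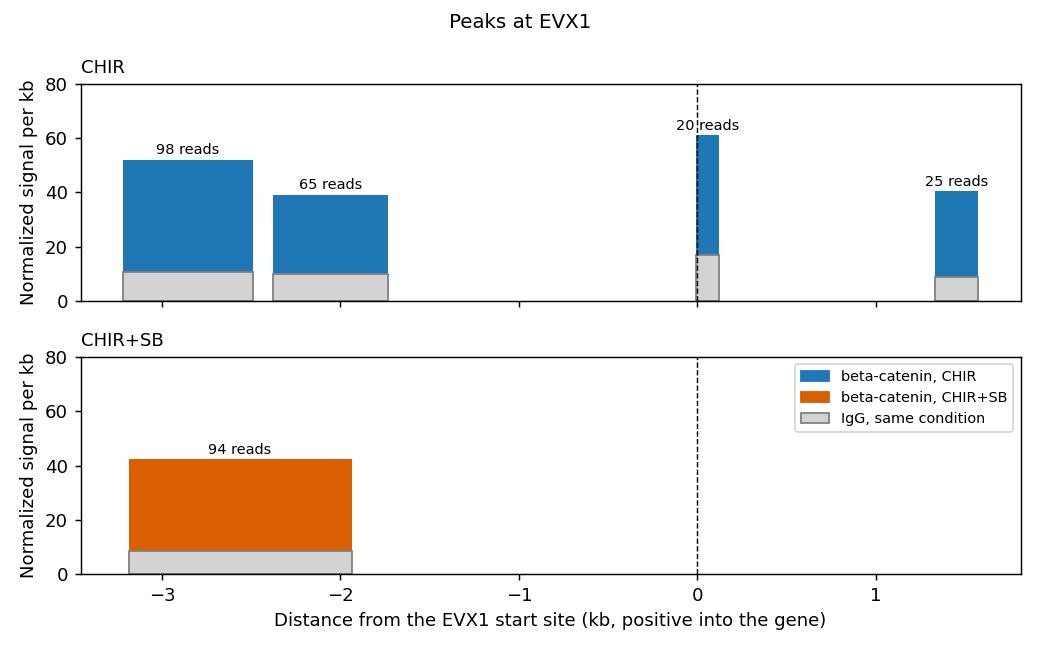
Normalized signal per kb of called peak (y axis) at EVX1 against distance from its start site in kb (x axis), in CHIR (top, 4 peaks) and CHIR+SB (bottom, 1 peak); bar width is the peak's width and grey bars are IgG of the same condition. The tall narrow bar at the start site holds only 20 reads over 126 bp.

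HOXA11 and HOXA10, genes of limb and reproductive tract patterning at the high-numbered end of the cluster, had weak peaks. HOXA11 had 30 reads and 6 IgG reads in CHIR, within the gene 2.03 kb from the TSS (chr7:27222644-27222961). In CHIR+SB it had 17 reads and 7 IgG reads at chr7:27222564-27222861. These intervals overlap, so it is one site found in both lists. HOXA10 had a peak in the CHIR+SB list alone, 16 reads and 3 IgG reads at chr7:27209621-27209787, which is 505 bp beyond the end of the transcript the authors used.

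In the HOXB cluster the strongest peak belonged to HOXB13, the tail-most gene of the cluster. It lay 4.36 kb upstream of the TSS with 85 reads and 8 IgG reads in CHIR (chr17:46810087-46810857), rank 28 of 1053. In CHIR+SB the same site had 36 reads and 16 IgG reads (chr17:46810204-46810749), rank 157 of 1813. It was the clearest case in these clusters of a lower signal in CHIR+SB, 20.3 against 32.6. The normalized IgG signal there was 6.30 in CHIR+SB and 5.65 in CHIR. HOXB3, a gene of hindbrain patterning, had a CHIR pair within the gene, 29 reads at chr17:46647243-46647440 and 35 reads at chr17:46647551-46647830, 111 bp apart. The CHIR+SB list had 18 reads at chr17:46647614-46647744, which overlapped the second of the pair and lay 174 bp from the first. HOXB1, the hindbrain gene at the head end of the cluster, had 21 reads and 2 IgG reads in CHIR 3.76 kb from the TSS beyond the gene's end (chr17:46604420-46604597), and no CHIR+SB peak.

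In the HOXD cluster the strongest site was that of HOXD13, a gene of digit and genital patterning next to EVX2. Its CHIR peak had 39 reads and 6 IgG reads (chr2:176961649-176962147), 1232 bp beyond the gene's end. The CHIR+SB peak at the same place had 38 reads and 16 IgG reads (chr2:176961615-176962102). The read counts differed by 1, and after scaling for depth the normalized signal was 15.0 in CHIR and 21.4 in CHIR+SB.

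HOXD1, at the head end of the cluster, had 2 sites beyond its own end in both lists. The nearer, 2.96 kb from the TSS, had 33 reads in CHIR (chr2:177056072-177056457) and 27 in CHIR+SB (chr2:177056101-177056599). The further, 3.997 kb from the TSS, had 29 reads in CHIR (chr2:177057098-177057508) and 14 in CHIR+SB (chr2:177057076-177057207). Both therefore persisted with the receptor inhibitor, the second at a low count. Another HOXD1 peak, 5.19 kb upstream, was in the CHIR+SB list alone with 15 reads (chr2:177048033-177048193). HOXD3 had a peak in CHIR alone, 23 reads and 3 IgG reads 0.674 kb upstream of the TSS (chr2:177028008-177028253). EVX2 had none.

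**Figure D3:**
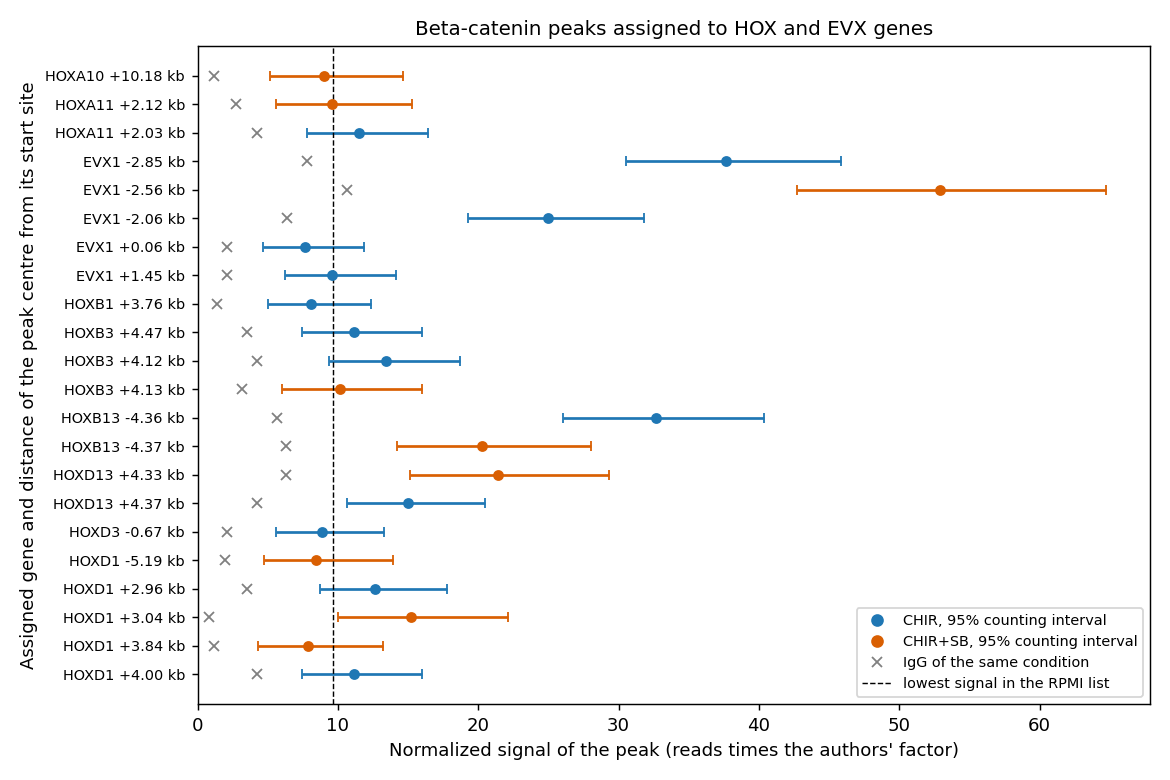
Normalized signal (x axis) of each of the 22 peaks, labelled by gene and distance from its start site (negative is upstream), with exact 95% counting intervals as bars and IgG signal of the same condition as crosses. The EVX1 upstream peaks and the CHIR peak of HOXB13 stand highest, and the dashed line marks 9.61, the lowest signal in the RPMI list.

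The other 31 genes had no peak in any list, and these included all 9 HOXC genes. By paralogue group, 4 of 7 genes in groups 1 to 3 had a peak in some list, 0 of 19 in groups 4 to 9 and 4 of 12 in groups 10 to 13. No share of all genes with a peak in some list was computed, so these counts have no baseline. The grouping by paralogue was made after the peaks were seen and was not tested. It depends on the authors' assignment to the nearest gene, because 1 CHIR peak in the middle of the HOXB cluster, 30 reads at chr17:46678568-46678923, was assigned to the noncoding gene HOXB-AS3. The HOXA10 peak also counts by that assignment, as it lay 10.2 kb from the TSS and beyond the gene's end.

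CHIR set against RPMI asks which sites were listed once β-catenin was stabilised. An RPMI peak lay over 0 of the 13 CHIR peaks of these genes, and over 17.0% of all CHIR peaks. The same held for 0 of the 9 CHIR+SB peaks, against 8.77% of that list. In the whole CHIR list this share rose with signal, from 3.75% in the lowest of 4 signal groups to 44.2% in the highest. Of the 13 CHIR peaks, 3 were in the highest group. RPMI peaks also lay close to start sites, at a median of 0.295 kb, where few of the 13 did. The nearest RPMI peak to the HOXD peaks was at ATF2, 0.929 Mb away, and those nearest the HOXA and HOXB peaks were 8.56 and 3.99 Mb away. The start of ATF2 had a peak in all 3 libraries (RPMI 32 reads, CHIR 71 reads, CHIR+SB 29 reads), so the RPMI library did give peaks on that chromosome. Each HOXD peak had fewer reads in CHIR than ATF2, so this does not show that the RPMI library could list them. Of the 13 CHIR peaks, 9 had a normalized signal at or above the lowest in the RPMI list. At equal signal the RPMI library would hold 58.7 reads at the highest EVX1 peak and 50.9 at HOXB13, and the lowest RPMI peak had 15. At the CHIR peaks of HOXA11, HOXB3, HOXD1 and HOXD13 it would hold 17.4 to 23.4 reads. These are not far above that lowest count, so absence from the RPMI list does not show a lower signal there. The 4 CHIR peaks below the lowest RPMI signal, at HOXB1, HOXD3 and the EVX1 TSS and gene body, would hold 12 to 15 reads. Whether these were lower in RPMI was not detectable at this depth. RPMI reads at these places were not in the lists, so no fold change was computed.

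CHIR+SB set against CHIR asks how the sites differed when activin, Nodal and TGFβ receptors were blocked along with CHIR. The 22 peaks made up 14 sites, of which 7 were in both lists, 5 in CHIR alone and 2 in CHIR+SB alone. A CHIR+SB peak lay over 8 of the 13 peaks of the CHIR list (61.5%, exact Clopper-Pearson 95% interval 31.6 to 86.1%), close to the 63.3% in the whole list. Conversely, 7 of the 9 CHIR+SB peaks shared bases with the CHIR list (77.8%, 40 to 97.2%), where 36.6% of that whole list did. The shared portion rose with signal across the whole CHIR+SB list, from 4.56% in the lowest of 4 signal groups to 84.2% in the highest, and 4 of the 9 peaks were in the highest group.

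The sites found in 1 list alone had signals below the median of that list (CHIR 11.9, CHIR+SB 9.56). The 5 in CHIR alone (the EVX1 TSS and gene body, HOXB1, the first of the HOXB3 pair and HOXD3) had 20 to 29 reads. At equal signal the CHIR+SB library would hold 13.7 to 19.8 reads there, against a lowest listed count of 12. The 2 in CHIR+SB alone, at HOXA10 and upstream of HOXD1, had 16 and 15 reads. The CHIR library would hold 23.4 and 22.0 reads there at equal signal, against a lowest listed count of 20. The signal at the first HOXB3 site, 11.1, was above the CHIR+SB median, and the other 4 CHIR signals ran from 7.68 to 9.60. The lists give no reads of the other library at these 7 sites, so a loss or gain there was not measured.

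At the 7 shared sites the signal in CHIR+SB was 0.620 to 1.43 times that in CHIR, with a median of 0.830, and at all 657 shared sites the median was 0.999. It was lower at 5 sites and higher at 2. At EVX1 upstream the ratio was 0.845 (exact 95% interval 0.648 to 1.0956). At HOXB13 it was 0.620 (0.408 to 0.926), the single site whose interval did not include 1, and 10.96% of all 657 sites had such an interval. The HOXB13 site was also the single one past 1.5-fold: 9.13% of all shared sites were at least 1.5-fold lower in CHIR+SB and 11.4% at least 1.5-fold higher. The share of 1 in 7 is near this background. At HOXB13 the called width in CHIR+SB was 0.708 of that in CHIR, and the ratio per kb was 0.877. After subtraction of IgG signal the HOXB13 ratio was 0.517, so these alternatives moved it in opposite directions.

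The other ratios did not stand apart from 1. They were 1.43 at HOXD13 (0.889 to 2.29), 1.20 at the nearer HOXD1 site (0.693 to 2.06) and 0.707 at the further one (0.345 to 1.38). At HOXA11 the ratio was 0.830 (0.429 to 1.55) and at HOXB3 0.753 (0.402 to 1.37). The widths were very unequal at the further HOXD1 site and at HOXB3, where the CHIR+SB peak was 0.320 and 0.466 times as wide. Per kb these ratios were 2.21 and 1.62, and that of the nearer HOXD1 site was 0.927, so the direction at these 3 sites turned with the width counted. The intervals cover counting error only, and they allow a change of over 1.5-fold at each of these 5 sites.

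**Figure D4:**
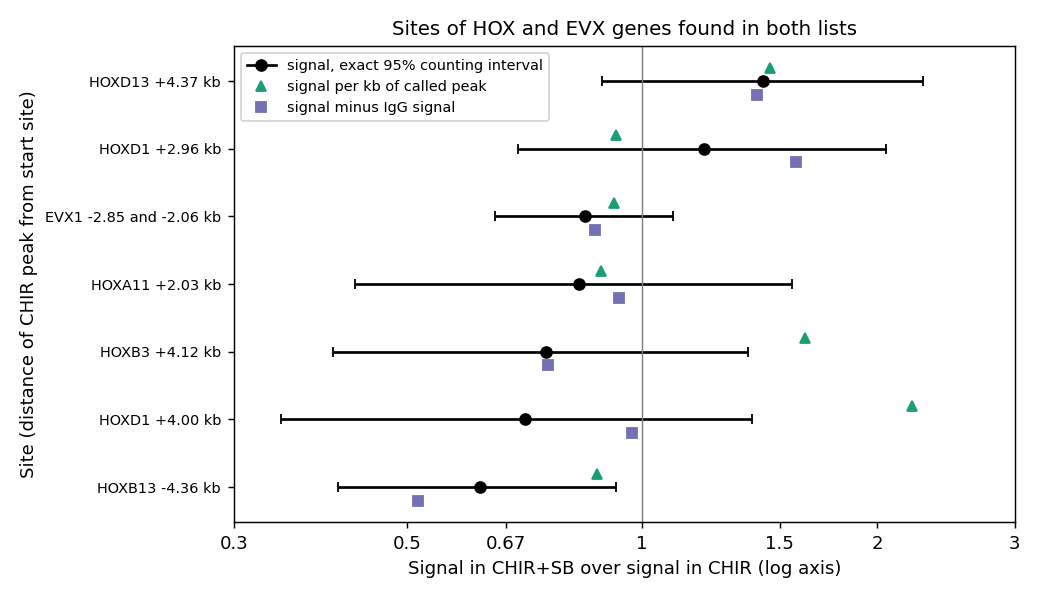
Signal in CHIR+SB over signal in CHIR (x axis, log scale) at the 7 sites found in both lists, with exact 95% counting intervals as bars, and the same ratio per kb of called peak (triangles) and after subtraction of IgG signal (squares). HOXB13 is the site whose interval lies below 1, and the triangles of HOXB3 and of both HOXD1 sites lie on the other side of 1 from their circles.

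The IgG library gave the background over the same peaks, and its signal was below that of β-catenin in all 22. The lists carry this control for each peak, and the thresholds of the peak caller are not known. The peaks may have been listed for exceeding the control, so this is not a test of them. The β-catenin to IgG ratio had a median of 3.63 over the 13 CHIR peaks, from 2.63 to 5.78, and the median of the whole CHIR list was 4.66. Over the 9 CHIR+SB peaks it was 4.29, from 3.21 to 19.3, and the median of that list was also 4.29. The highest value, at the nearer HOXD1 site, rested on 2 IgG reads (exact 95% interval 4.85 to 167.4). HOXB13 had a ratio to IgG of 5.78 (2.81 to 13.8) with CHIR, and of 3.21 (1.74 to 6.20) with CHIR+SB, and these intervals overlap. At HOXD13 the IgG signal was also higher in CHIR+SB, 6.30 against 4.23. Its ratio to IgG was 3.39 (1.85 to 6.52) with CHIR+SB, against 3.54 (1.49 to 10.2) with CHIR, and after subtraction of IgG the ratio of CHIR+SB to CHIR was 1.40. The part of IgG in these differences was not tested.

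Peaks inside the same clusters were also assigned to genes outside the 40. HOTTIP, a long noncoding RNA gene at the high-numbered end of HOXA, had 42 reads in CHIR (chr7:27254018-27254526) and 28 in CHIR+SB (chr7:27254250-27254602), with a ratio of normalized signals of 0.977 (0.583 to 1.61). A second HOTTIP peak in CHIR had 20 reads and no IgG read. Near HOXC, the noncoding gene HOXC-AS5 had a CHIR+SB peak of 15 reads, 55.1 kb from its TSS.

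Among 25 cofactors and regulators of HOX genes that lie outside the clusters, the RPMI list held 0, the CHIR list 2 and the CHIR+SB list 6, beside 1.13%, 3.8% and 6.25% of all protein-coding genes. Of the 6, 3 had a peak within 50 kb. CDX1 and CDX2, homeobox factors that switch on HOX genes, were the pair with CHIR peaks, and both had CHIR+SB peaks. The highest CDX2 peak had 177 reads in CHIR, a normalized signal of 67.97, and 84 reads in CHIR+SB, a signal of 47.3. For CDX1 the signals were 28.4 (74 reads) and 19.1 (34 reads). No PBX gene, which encode the partners with which HOX proteins bind DNA, had a peak, and of the MEIS genes MEIS2 had 14 reads in CHIR+SB 359.0 kb away. Of 10 HOX-like and ParaHox genes beyond the CDX genes, 0 had a peak in RPMI, 2 in CHIR (GBX2 and PDX1) and 4 in CHIR+SB (also EN1 and MNX1). GBX2, which like PDX1, EN1 and MNX1 was named after its values were seen, had a highest signal of 31.1 in CHIR (81 reads) and 27.0 in CHIR+SB (48 reads). Of 28 noncoding genes of the clusters, 0 were in the RPMI list, 2 were in that of CHIR and 2 in that of CHIR+SB, with HOTTIP among each pair. No share of all noncoding genes was computed, so these counts have no baseline.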

How the data were processed

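β-catenin and IgG ChIP-seq of SA121 cells was deposited as 3 peak lists, 1 per β-catenin library. Per the labels' protocols, parallel immunoprecipitations were pooled before each library. Per the submitters' processing notes, Bowtie was used, and of the builds hg19 and mm9 named there the human one, hg19, was taken for the lists. The sources used here do not give a peak caller or its thresholds. Per the file headers, each deposited peak has a read count for β-catenin and for the negative control, taken as the IgG library of the same condition because the list names that library and its values share the control's scaling factor. The deposited normalized signal was the count times 1 factor per library. Decimal commas were read as points, and peak coordinates were left unconverted.

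The 40 genes and all lists were chosen with earlier results of these data known. All genes with a peak are named; other genes only from the fixed lists or inside a cluster. Peaks sharing at least 1 bp formed a site, with reads summed per list. Ratios carry exact conditional 95% intervals from the counts of both libraries (scipy 1.17.1, tested on simulated data). All 40 symbols matched RefSeq (GRCh38.p14), used for names, promoters and the count of 20056 protein-coding genes. Results for 1 gene of the fixed lists are not reported here. The alternatives were a common signal minimum, the 260 highest peaks, distance limits, other overlap rules, signal per kb, IgG subtraction and raw counts.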

Additional observations from a re-analysis of the deposited data

How the results depend on the processing

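Of 49 recomputed values, 39 stayed within the stated margin (1.5-fold for a count, the counting interval otherwise) and 10 moved. With the 260 highest peaks of each list, the CHIR list had 3 peaks at 2 of the genes and the CHIR+SB list 3 peaks at 3 of the genes. With the common signal minimum of 9.61 the CHIR list kept 9 peaks and the CHIR+SB list 5, and the share lying over a CHIR peak was then 100% (5 of 5). Per kb of called peak the ratio of CHIR+SB to CHIR was 1.62 at HOXB3 and 2.21 at the further HOXD1 site. With raw counts the median of β-catenin over IgG was 6.67 in CHIR and 3.0 in CHIR+SB, so the order of the lists turned with the authors' scaling. No RPMI peak was assigned to these genes under the 4 alternatives run for that count. Those alternatives could only keep or remove peaks of the RPMI list, so they could not have given any other result. They therefore do not test the absence of RPMI peaks. The RPMI counts of peaks and of genes are among the 39 values that stayed, so that figure includes values that could not move. No paired analysis was possible because each condition had 1 library. The read counts of single sites, mostly 14 to 39, limit the precision of each ratio.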
